A study of Mus musculus with 32 samples.

Results

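The genes that encode the proteins of the cytosolic ribosome were followed in mouse liver across genotype, diet and feeding state. They were taken by name from the gene annotation, as every protein-coding gene whose symbol begins with Rpl or Rps and a digit, with Rpsa, Rplp0, Rplp1 and Rplp2 added, and without pseudogenes and S6 kinases. The count table held 85 of the 86 annotated genes of this kind, among 20076 genes in all; Rpl10l was not in it. Of these, 51 had names of the large (60S) subunit, beginning with Rpl, and 34 had names of the small (40S) subunit, beginning with Rps. By role, 77 were core subunit genes, 6 were paralogs of core genes (Rpl3l, Rpl22l1, Rpl36al, Rpl39l, Rps27l and Rps27rt), and 2 encode no structural subunit although their names match, namely Rps19bp1, which encodes a binding partner of the Rps19 protein, and Rpl7l1, which encodes a factor resembling Rpl7.

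The study compared male mice on a C57BL/6J background that lacked medium-chain acyl-CoA dehydrogenase (MCAD-KO, labelled Acadm-knockout) with wild-type (WT) littermates. Mice received a low-fat (LF) or a high-fat (HF) semi-synthetic diet for 6 weeks and were then fasted for 16 h or left on their diet (fed), which gave 8 groups of 4 mice. Every mouse was an individual animal of 2 to 4 months according to the methods, and liver RNA was sequenced with a 3′-end library (QuantSeq), in which a transcript is read near its poly(A) end regardless of its length. The labels give no tissue restriction for the knockout, and whole liver tissue was taken, so that hepatocytes and the other cells of the liver were measured together.

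One WT LF fed mouse (replicate 2) and one MCAD-KO HF fasted mouse (replicate 4) were left out of all comparisons. Heart marker genes summed to 34774 CPM (counts scaled to a library of 1000000) in the second of these and to no more than 78.5 CPM in any of the 30 mice that remained. In the first, proliferation markers summed to 478 CPM and stellate cell markers to 1748 CPM, against at most 43.0 and 687 CPM in the 30. In those 30 mice the total was 2031053 to 4292200 counts, the hepatocyte markers summed to between 45373 and 76321 CPM, and Acadm was at 26 to 94 counts in the 15 MCAD-KO mice against 566 to 2752 in the 15 WT mice. Markers of the acinar pancreas reached 17807 CPM in 1 WT HF fasted mouse and 2675 CPM in 1 MCAD-KO HF fed mouse, and 54.2 CPM at most elsewhere.

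Each ribosome carries 1 copy of most of these proteins, so their genes are expressed together and, in most tissues, at high levels. Their mRNAs begin with a 5′ terminal oligopyrimidine (TOP) tract, a cytosine followed by a stretch of pyrimidines, through which translation of the whole class is tied to nutrient signalling by mTORC1 and the RNA-binding protein LARP1. In the liver, ribosome content is known to follow food intake, and part of that control acts on translation and on turnover of ribosomes rather than on the mRNA amount that was measured here. Many mammalian ribosomal protein genes also have processed pseudogenes, intron-less copies whose sequence stays close to that of the parent transcript.

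Runs of pyrimidines were looked for in the sequence around the annotated start sites. A window from 250 bases before to 50 bases after the start was listed by RefSeq (GRCm38.p6) for 65 of the 85 genes. Within 50 bases on either side of the annotated start, 53 of these, or 81.5%, held an uninterrupted run of at least 8 C or T on the coding strand, compared with 39.3% of all 27025 genes listed. The median longest run was 10 bases for the ribosomal protein genes and 7 for all genes. The letters CCGGAAG, the core of many binding sites of ETS factors such as GABP, were found on either strand (the reverse complement begins with 5 C or T and can overlap a pyrimidine run) of the 300-base window in 40.0% of the ribosomal protein genes and in 9.93% of all genes. The sequences printed here belong to genes whose counts differed with diet or fasting (Rpl13a, Rpl22l1, Rpl36al and Rpl35a) and, beside them, to a pair of highly counted genes for which no test passed (Rpl4 and Rpl22); each is a 30-base stretch around the longest run, which is in capitals, read 5′ to 3′ on the coding strand of GRCm38.
Rpl13a (chr7:45128722-45128751, minus strand): cgacaagaCCTCCTCCTTTCCCaggcggct
Rpl22l1 (chr3:28805499-28805528, plus strand): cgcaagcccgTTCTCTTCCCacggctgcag
Rpl36al (chr12:69184020-69184049, minus strand): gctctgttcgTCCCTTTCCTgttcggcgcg
Rpl35a (chr16:33056469-33056498, plus strand): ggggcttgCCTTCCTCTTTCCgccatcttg
Rpl4 (chr9:64173406-64173435, plus strand): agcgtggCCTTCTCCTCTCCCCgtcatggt
Rpl22 (chr4:152325679-152325708, plus strand): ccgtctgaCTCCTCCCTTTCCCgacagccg
Among the printed genes, those that differed between conditions and those for which no test passed both carried such runs. Rpsa, whose counts also differed with diet, had a longest run of 7 bases, under the 8 used here. Counted from the annotated start, the printed runs began at 2 (Rpl13a), 1 (Rpl22l1), 28 (Rpl36al), 24 (Rpl35a), 26 (Rpl4) and -39 (Rpl22). A TOP tract opens the mRNA, so a run elsewhere in the window need not be one. A run in this window is a description of the letters only.

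The level of the individual genes covered a very wide range. Together the 85 genes took 0.306% to 0.464% of all counts in the 30 mice, with a median of 0.364%. The 5 genes with the most counts supplied 38.9% of the sum and the first 10 supplied 60.8%. Rplp1, one of the acidic stalk proteins that recruit elongation factors, was highest at 477 ± 116 CPM (SD, n = 30), with a range of 244 to 837. CPM here and for single genes below is scaled by the trimmed mean of M values (TMM), and since one fragment is read per transcript no length scaling was applied. Rpl4, which lines the peptide exit tunnel, followed at 325 ± 63.7 CPM, then Rps9 of the 40S body at 213 ± 49.0 CPM and Rps27l, the p53-inducible paralog of Rps27, at 210 ± 34.4 CPM. Rpl22, at 197 ± 24.1 CPM, and Rps14, at 196 ± 61.1 CPM, did not differ from Rps27l beyond the spread among mice.

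At the other end stood Rpl39l, with a mean of 0.10 counts per mouse, Rpl24 with 0.27, Rps6 with 0.43, Rpl35 with 0.87 and Rpl10a with 0.90. Rps6 encodes the S6 protein that is phosphorylated downstream of mTORC1. Core genes whose proteins are needed in equal number were thus counted at very different levels, and 25 of the 85 had a mean of fewer than 10 counts. Of the 85, 70 passed the filter on low counts and entered the tests among 11566 genes; those that did not were Rpl36, Rpl11, Rpl10, Rps27a, Rps23, Rpl23a, Rps27, Rpl38, Rpl28, Rpl3l, Rpl10a, Rpl35, Rps6, Rpl24 and Rpl39l. Core proteins such as Rpl11, which with Rpl5 joins the 5S RNA particle, Rps27a, made as a fusion to ubiquitin, and Rpl24, part of an intersubunit bridge, were thus not testable.

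Pseudogene rows held many counts. The table listed 128 ribosomal protein pseudogenes with -ps in their name and 165229 counts over the 30 mice, beside 327161 for the genes themselves. Of 50 genes with at least 1 listed pseudogene, 25 had fewer counts than their pseudogenes. Rps13 had 173 counts and its pseudogenes had 19742. For Rps16 the values were 336 and 14257, and for Rps10 they were 600 and 12067. Rps24 had 1466 counts beside 11268, and Rps6 had 13 beside 1416. For such genes, the row of the parent gene held a small part of the counts on all rows with its name. Pseudogenes without -ps in their name are in neither the sum nor the tally. A few were looked up by symbol. Among these Rpl37rt had the most counts, at 39484, where Rpl37 had 4485. Other pseudogenes without -ps were not counted.

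**Figure D1:**
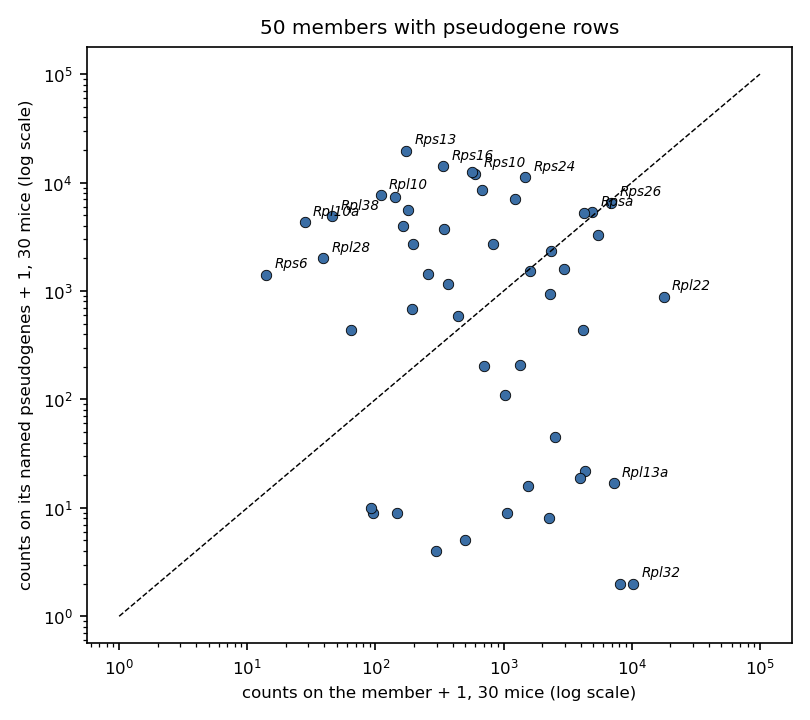
Counts of 50 ribosomal protein genes summed over 30 mice (horizontal axis) and the summed counts of the pseudogenes named after them (vertical axis), both plus 1 and on log scales, one point per gene. Points above the diagonal are the 25 genes with fewer counts than their pseudogenes, among which Rps13 and Rps6 lie far above it.

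Sequence shared between transcripts was measured as well. In the last 300 bases of each transcript, where the 3′-end reads fall, the share of 50-base words also present in a transcript of another gene had a median of 80.5% for the 25 genes with a mean under 10 counts, 56.6% for the 35 genes between 10 and 100 counts, and 7.17% for the 25 genes with 100 or more. The grouping was not strict. Rpl11, Rpl28, Rpl12, Rpl6 and Rpl5 shared no word with another gene and still had low counts. Rplp1 shared 66.9% and had the most counts. However, Rpl28 had 38 counts beside 2015 on its named pseudogenes, and Rpl5 had 821 beside 2720. Rps24, Rps25 and Rpl31 also shared no word, while their named pseudogenes held 11268, 7077 and 8579 counts. A gene without a shared word can thus have copies that took counts. Of the genes that differed between conditions, Rpsa and Rpl13a shared no word and Rpl8 shared 25.1%. Rpl22l1 shared 63.3%, Rpl36al 68.9% and Rpl35a 58.6%, so that the counts of these 3 are uncertain. Those of Rpsa are uncertain as well, since it had 4906 counts beside 5294 on the pseudogenes named after it. How the reads were divided between copies was not tested.

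The group means of the summed share of the 85 genes were mostly larger on the low-fat than on the high-fat diet (mean ± SD). They were 0.417% ± 0.0322 in MCAD-KO LF fed (n = 4), 0.396% ± 0.00304 in WT LF fed (n = 3), 0.382% ± 0.0350 in MCAD-KO LF fasted (n = 4) and 0.342% ± 0.0163 in WT LF fasted mice (n = 4). In the HF groups they were 0.356% ± 0.0359 in WT fed (n = 4), 0.351% ± 0.0291 in MCAD-KO fed (n = 4), 0.337% ± 0.0188 in MCAD-KO fasted (n = 3) and 0.331% ± 0.0320 in WT fasted mice (n = 4). The 15 LF mice ranged from 0.327% to 0.464% with a median of 0.393%, and the 15 HF mice from 0.306% to 0.392% with a median of 0.341%. The ranges overlapped, and in WT LF fasted mice the mean lay below that of both HF fed groups. The share on pseudogene rows had a median of 0.201% (0.149% to 0.243%) in LF and of 0.170% (0.149% to 0.198%) in HF mice. No p is given for these sums, which were looked at with the results for single genes known.

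**Figure D2:**
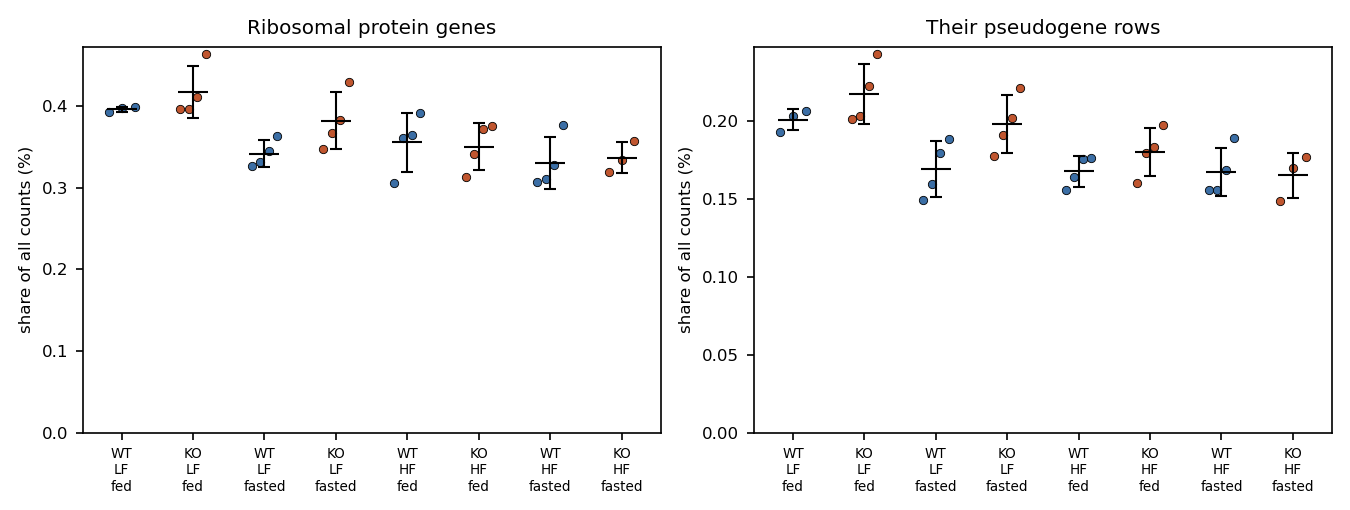
Percent of all counts on the 85 ribosomal protein genes and on ribosomal protein pseudogene rows, per mouse, in the 8 groups; points are mice (blue WT, red MCAD-KO) and bars are mean ± SD. In these shares without TMM scaling, the LF fed groups have the highest means for the ribosomal protein genes (0.396% and 0.417%). WT HF fasted has the lowest (0.331%).

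Across the 8 groups, the 34 genes with a mean of at least 50 counts were compared by group mean. Their highest group mean was in MCAD-KO LF fasted mice for 17 genes, in MCAD-KO LF fed mice for 7 and in WT LF fed mice for 5. Their lowest was in WT HF fasted mice for 14, in MCAD-KO HF fed mice for 7 and in WT HF fed mice for 5. Without replicate 1 of the MCAD-KO LF fasted mice (chosen once its high values were known), 14 genes were highest in that group, 9 in WT LF fed and 7 in MCAD-KO LF fed mice, and 14 were still lowest in WT HF fasted mice. The spread within groups was like that of other genes: the median within-group SD on the log2 scale was 0.301 for the 34 genes and 0.303 for the 5845 genes counted as well. Rpl22 varied least, with an SD of 0.148.

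**Figure D3:**
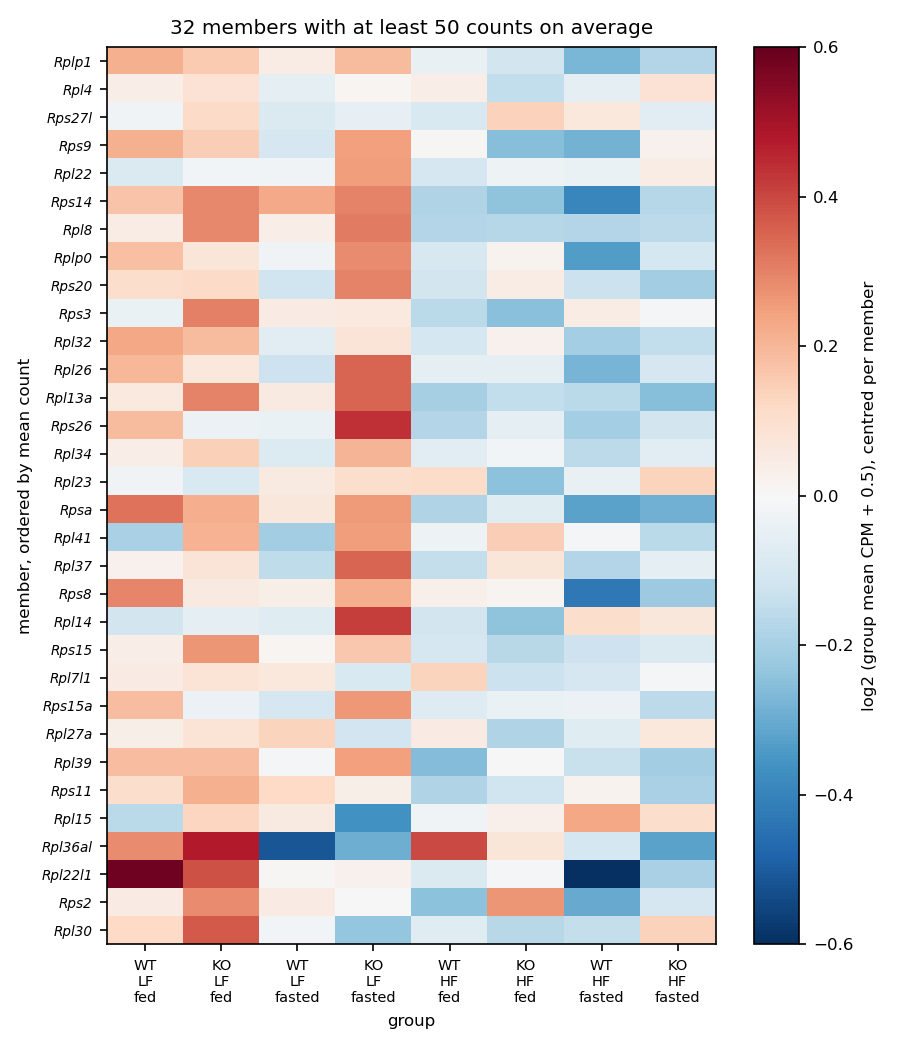
Mean log2 CPM of 32 ribosomal protein genes with a mean of at least 50 counts in each of 8 groups, centred on the mean of each gene; colour runs from below to above that mean and stops at 0.6 in either direction, a limit that Rpl22l1 in WT HF fasted mice (-0.71) exceeds. The LF columns are mostly above and the HF columns mostly below the mean of the gene, apart from WT LF fasted, which has values on both sides.

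The first comparison asked how the high-fat diet changed these genes, averaged over genotype and feeding state. On HF, 5 of the 70 tested genes fell and none rose. They included Rpsa of the small subunit and Rpl8, Rpl13a and the paralog Rpl22l1 of the large subunit. Among all genes tested 1.24% were called lower and 2.26% higher at the same threshold, an adjusted p below 0.05 in the quasi-likelihood test of edgeR, adjusted over 11566 genes by the Benjamini-Hochberg method. The log2 fold change was negative for 56 of the 70, with a median of -0.21, against 48.8% negative and a median of 0.0068 over all genes tested. Without adjustment, 20 of the 70 were lower at p below 0.05 (6.94% of all genes) and 1 was higher (8.88%). By name, 25 of 30 Rps genes and 31 of 40 Rpl genes had a negative value. A lower count in whole liver cannot tell less RNA per cell from fewer cells of a type.

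Rpl8 (chr15:76904078-76906314) encodes a protein close to the peptidyl transferase centre. It was at 153 to 273 CPM in the 15 LF mice, with a median of 201, and at 131 to 199 CPM in the 15 HF mice, with a median of 158. All 15 HF mice were below the LF median, while 8 LF mice exceeded every HF mouse. The log2 fold change was -0.34 (SE 0.08) with an edgeR adjusted p of 0.00947, and 0.0707 when the 2 omitted mice were kept.

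Rpsa (chr9:120127689-120132369) encodes a 40S protein that is also described as a laminin receptor. It ranged from 42.2 to 94.4 CPM in LF mice around a median of 60.4, and from 33.1 to 61.5 CPM in HF mice around a median of 46.1. Of the HF mice 13 were below the LF median, and 7 LF mice were above the highest HF mouse. On the log2 scale the change was -0.44 (SE 0.10), with an edgeR adjusted p of 0.00967.

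Rpl13a (chr7:45125558-45128761) encodes a 60S protein that can leave the ribosome and silence inflammatory transcripts. It was at 71.7 to 138 CPM in LF mice (median 89.8) and at 43.8 to 95.9 CPM in HF mice (median 69.6). The ranges overlapped, with 14 HF mice below the LF median. The log2 fold change was -0.38 (SE 0.10) with an edgeR adjusted p of 0.0202.

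Rpl22l1 (chr3:28805436-28807424) is the paralog of Rpl22 and can take its place in the ribosome. It was at 15.2 to 32.9 CPM in LF mice (median 24.4) and at 9.25 to 32.4 CPM in HF mice (median 15.8). Only 1 LF mouse exceeded the highest HF mouse, and 13 HF mice were below the LF median. Its log2 fold change was -0.52 (SE 0.14) with an edgeR adjusted p of 0.0229. Rpl22 itself, the more abundant of the pair, had a log2 fold change of -0.06 (adjusted p 0.756).

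**Figure D4:**
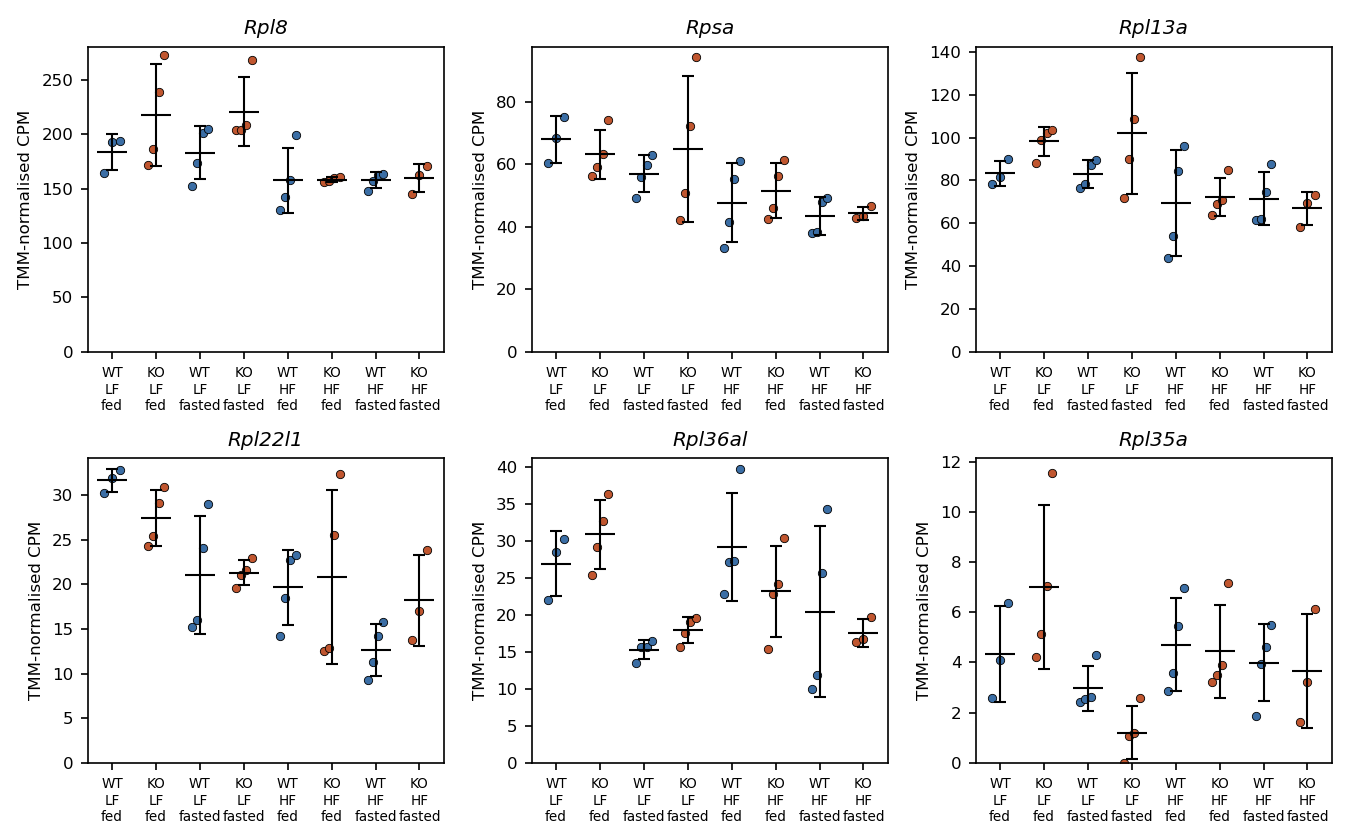
TMM-scaled CPM per mouse of 6 ribosomal protein genes that passed a test with diet or with fasting, in the 8 groups; each point is 1 mouse (blue WT, red MCAD-KO), the lines and bars are mean ± SD, and the axes start at 0. In Rpl8 the HF mice all lie below the LF median, and Rpl36al is lower in the fasted groups, where 14 of 15 mice are below the fed median.

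Other genes of known role had values that did not pass. Rps14 had a log2 fold change of -0.49 (adjusted p 0.055), and the stalk base Rplp0 of -0.26 (adjusted p 0.0717). Rplp1 was at -0.30 (adjusted p 0.216) and Rplp2 at -0.41 (adjusted p 0.487). Rps26 and Rps28 were at -0.28 and -0.55, both with an adjusted p of 0.123. For 3 genes the estimate was near 0 with a small error: Rpl4 was at -0.04 (SE 0.11), Rps27l at 0.02 (SE 0.09) and Rpl7l1, not a subunit of the ribosome, at -0.06 (SE 0.09). Rpl41, the smallest ribosomal protein, was at -0.03 (SE 0.15), Rpl5 at 0.06 (SE 0.18) and Rps19, the gene most often mutated in Diamond-Blackfan anaemia, at -0.25 (SE 0.32). The positive estimates with the smallest p belonged to the poorly counted Rps29 (0.80, adjusted p 0.140), to Rpl27 (0.33) and to Rpl35a (0.33). The genes with no test passed therefore included both negative values of a size like that of the called genes and values close to 0.

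Within each combination of genotype and feeding state these 4 genes had negative values. In the order WT fed, WT fasted, MCAD-KO fed and MCAD-KO fasted, the log2 fold changes were -0.22, -0.22, -0.46 and -0.47 for Rpl8. For Rpsa they were -0.51, -0.40, -0.30 and -0.55. For Rpl13a they were -0.27, -0.22, -0.45 and -0.61, and for Rpl22l1 -0.69, -0.74, -0.41 and -0.23. Among the 70 genes, 30 were lower on HF in all 4 combinations and 2 were higher in all 4; the averaged value is made of these 4, so the counts describe how evenly it was spread.

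Within single combinations, 1 of the 70 genes was called, in fasted MCAD-KO mice, where 0.605% of all genes were called lower. This call was lost without any of 4 of the 7 mice, namely MCAD-KO HF fasted replicates 1 and 2 and MCAD-KO LF fasted replicates 1 and 4. No gene was called in fed WT mice (0.0778% of all genes called in either direction), in fasted WT mice (1.12%) or in fed MCAD-KO mice (0.00865%). At an unadjusted p below 0.05, 3 genes were lower in fed WT mice (5.22% of all genes in either direction) and 4 in fasted WT mice (12.3%). In fed MCAD-KO mice 5 were lower and 1 higher (7.26%). In fasted MCAD-KO mice 11 were lower (6.35% of all genes were lower) and 1 was higher (6.71%). The smallest p was that of Rpl22l1 in fed WT mice (30.3, 31.9 and 32.9 CPM on LF, 14.2, 18.5, 22.7 and 23.3 CPM on HF, edgeR adjusted p 0.804, and -0.98 with an adjusted p of 0.344 with lane as a term). In fasted WT mice it was again Rpl22l1 (15.2, 16.0, 24.0 and 29.1 CPM on LF, 9.25, 11.3, 14.2 and 15.8 CPM on HF, edgeR adjusted p 0.197). In fed MCAD-KO mice it was Rpl8, at 171, 187, 239 and 273 CPM on LF and 156, 158, 160 and 161 CPM on HF. These groups did not overlap, with an exact permutation p of 0.0286, the smallest that 4 against 4 mice allow, and an edgeR adjusted p of 0.403.

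The diet comparison was repeated with the counts of each gene added to those of the pseudogenes named after it, a choice made after the pseudogene counts had been seen. Of 77 sums that could be tested, 68 were negative and the median was -0.21, and 9 were called lower and none higher, where 1.27% of the 11529 rows of that fit were called lower and 2.27% higher. Rps16 (-0.39, edgeR adjusted p 0.00271), Rps10 (-0.39, adjusted p 0.00277), Rps13 (-0.33, adjusted p 0.0151) and Rps26 (-0.28, adjusted p 0.0227) joined the 5 genes called before, which all passed again. Pseudogene rows were also taken alone, here with those looked up by symbol, such as Rpl37rt, included. Of 47 tested, 3 were called lower on HF (1.24% of all genes) and none higher (2.26%), and 39 were negative. These rows may hold reads of the parent genes and are not separate evidence. The 3 were Rps16-ps2 (-0.40, adjusted p 0.00256), Rps10-ps1 (-0.39, adjusted p 0.00271) and Rpsa-ps10 (-0.41, adjusted p 0.00870). Rpl27 and Rpl35a, which had positive values as single rows, were at -0.21 and -0.088 as sums.

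The libraries were read in 2 lanes, which held 7 LF and 9 HF mice, and 8 LF and 6 HF mice. All 3 WT LF fed mice were in the second lane, so comparisons with that group are in part between lanes. Within the first lane none of the 5 genes passed: Rpl8 was at -0.41, Rpsa at -0.40, Rpl13a at -0.47 and Rpl22l1 at -0.22. Within the second lane the values of these 4 were -0.31, -0.46, -0.40 and -0.95, and 4 genes were called, of which Rpl22l1 (adjusted p 0.00853) was one. In both lanes most genes had a negative value, 51 of 64 and 56 of 73. The number called lower ranged from 1 to 8 when all mice of 1 replicate number were left out. It was 1 without replicate 1 or replicate 3, 2 without replicate 4 and 8 without replicate 2. Shares over all genes are not given for the fits within lanes or without a replicate number. These counts therefore stand without a background. Leaving out the 2 mice with pancreatic markers, both on HF, gave 5 calls. Markers of stellate cells summed to 366 to 572 CPM (median 455) in LF and 429 to 687 CPM (median 516) in HF mice, and lymphocyte markers to 14.5 to 30.6 (median 20.5) and 15.5 to 44.5 CPM (median 25.1). Their part in the result was not tested.

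**Figure D5:**
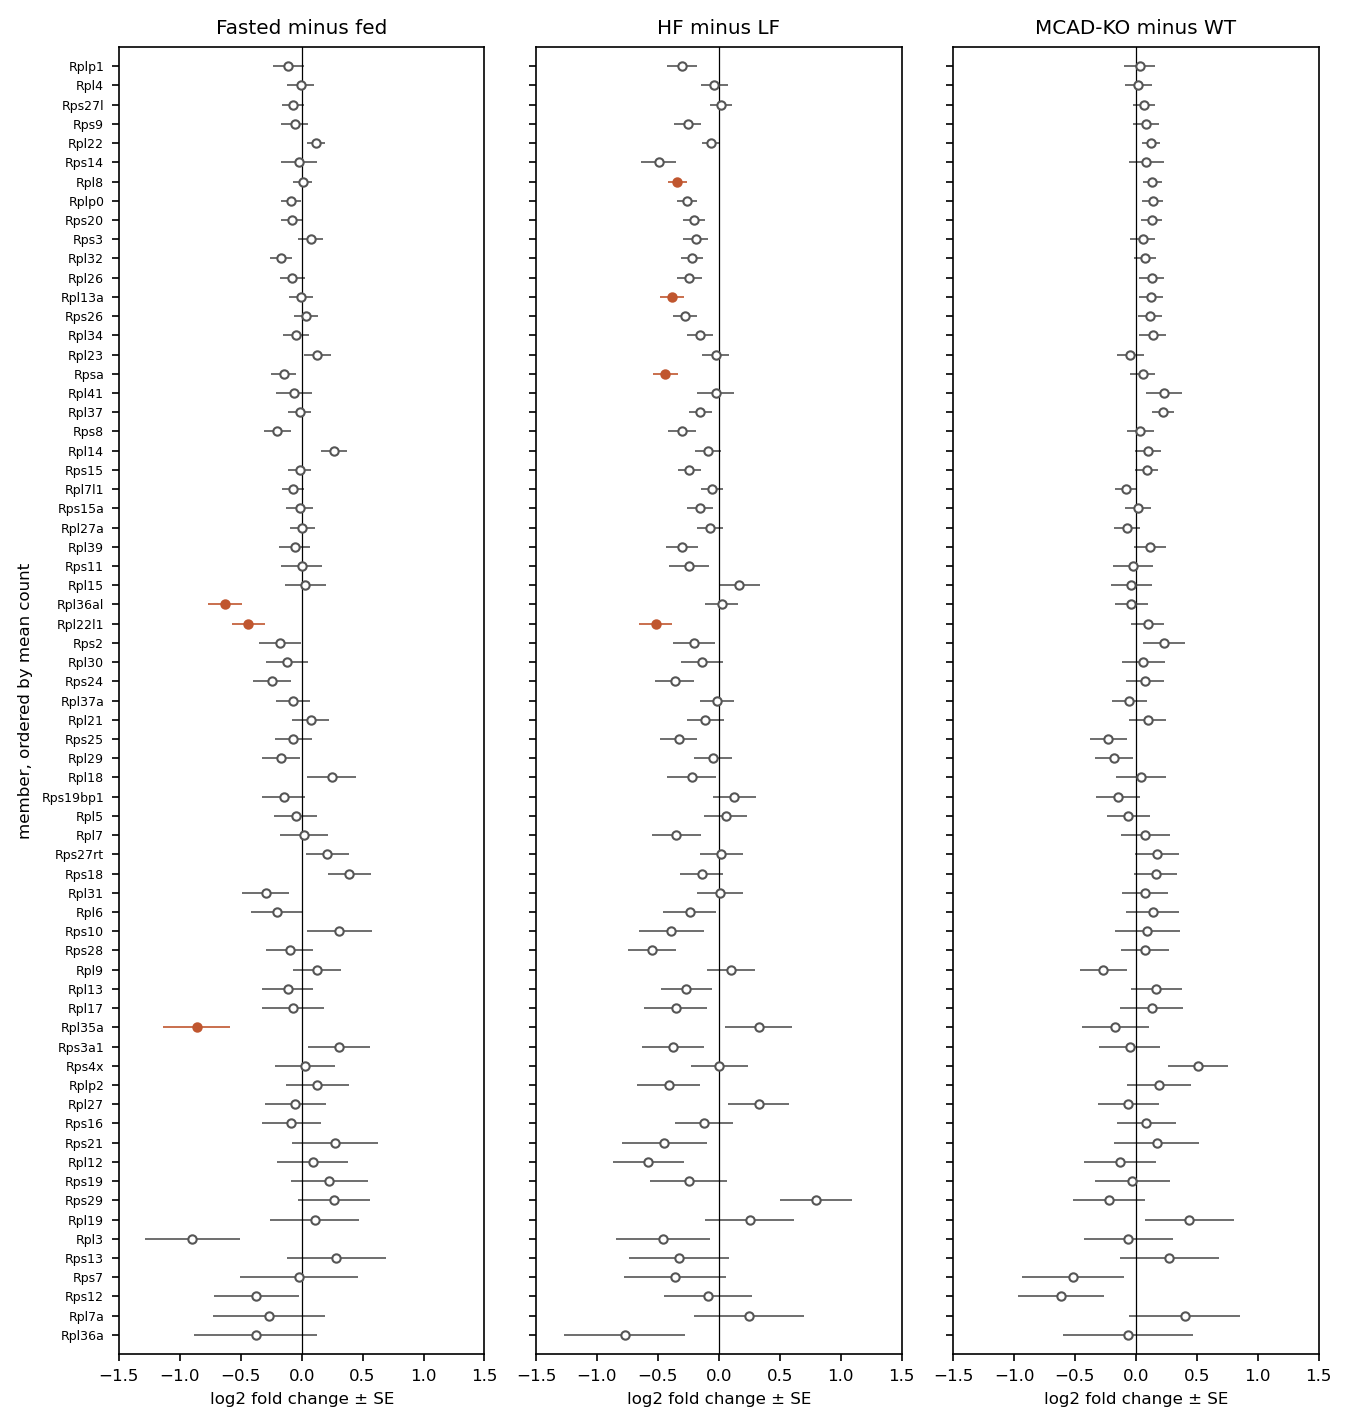
Log2 fold change (± SE) of 67 ribosomal protein genes for fasted against fed, HF against LF and MCAD-KO against WT mice, each averaged over the other factors; filled points have an adjusted p below 0.05. Values lie mostly below 0 for diet (53 of 67, 4 filled) and on both sides of 0 for fasting (43 of 67 below, 3 filled) and genotype (22 of 67 below, none filled).

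The second comparison asked about fasting, averaged over genotype and diet. After 16 h without food, 3 of the 70 genes were lower and none was higher, where 9.14% and 9.77% of all genes were called. The 3 were Rpl36al, Rpl22l1 and Rpl35a, all of the large subunit and 2 of them paralogs. The median log2 fold change of the 70 was -0.036 (all genes -0.0022), with 43 negative values. Without adjustment 4 were lower (14.4% of all genes) and 3 higher (15.1%) at p below 0.05. The share called among the ribosomal protein genes, 4.29% lower and none higher, was thus under the background in both directions.

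Rpl36al (chr12:69182731-69184083) is the paralog of the X-linked Rpl36a. It was at 15.4 to 39.6 CPM in the 15 fed mice (median 27.2) and at 10.0 to 34.2 CPM in the 15 fasted mice (median 16.4). Of the fasted mice, 14 lay below the fed median. Averaged over the groups, Rpl36al fell by 0.63 on the log2 scale (SE 0.14) with an edgeR adjusted p of 7.59e-04. Rpl36a, with a mean of 1.51 CPM and all of its 3′ words shared with other genes, had a value of -0.38 (adjusted p 0.681).

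Rpl22l1 was at 12.5 to 32.9 CPM in fed mice (median 25.4) and at 9.25 to 29.1 CPM in fasted mice (median 17.0), and 14 of 15 fasted mice were below the fed median. Its log2 fold change was -0.44 (SE 0.14, edgeR adjusted p 0.0174), so that it was lower both on HF and after fasting. Rpl22 was at 0.12 (adjusted p 0.283). Within single lanes Rpl22l1 was at -0.41 and -0.39, and neither value passed.

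Rpl35a (chr16:33056453-33060189) encodes a 60S protein needed for maturation of the large subunit. It was poorly counted, with a mean of 12.3 counts, and lay at 2.58 to 11.6 CPM in fed (median 4.22) and 0 to 6.13 CPM in fasted mice (median 2.58). Its log2 fold change was -0.86 (SE 0.28, edgeR adjusted p 0.0229), and -0.37 (adjusted p 0.0296) when the counts of its pseudogenes were added. Summed with pseudogenes, Rps24 was also called (-0.28, adjusted p 0.0248), in a fit that called 9.2% of all rows lower and 9.8% higher. Markers of macrophages summed to 530 to 750 CPM (median 635) in fed and 340 to 1003 CPM (median 458) in fasted mice. Erythroid markers summed to 551 to 1261 CPM (median 810) and 446 to 1145 CPM (median 596), and proliferation markers to 16.6 to 43.0 CPM (median 25.4) and 12.9 to 28.7 CPM (median 18.8). Their part in the result was not tested.

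The positive estimates with the smallest p did not pass, among them Rpl14 at 0.26 (adjusted p 0.0848) and Rps18 at 0.39 (adjusted p 0.125). Of the genes followed for their role, Rplp0 was at -0.09, Rplp1 at -0.11, Rplp2 at 0.13, Rpl4 at -0.01 and Rps27l at -0.07. Rpl41 was at -0.06, Rpl5 at -0.05, Rps19 at 0.23, Rps4x at 0.03 and Rpl39 at -0.06. Rpl3, a protein near the peptidyl transferase centre with a mean of 1.92 CPM, was at -0.90 (adjusted p 0.107). None of these passed.

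In single combinations, the fasting calls came from MCAD-KO LF mice, with 1 gene higher (7.26% of all genes) and 2 lower (6.53%). Rpl36al was at 25.4, 29.2, 32.7 and 36.3 CPM in fed and at 15.6, 17.5, 19.0 and 19.5 CPM in fasted MCAD-KO LF mice. The groups did not overlap (log2 fold change -0.79, SE 0.27, edgeR adjusted p 0.0435; exact permutation p 0.0286, n = 4 and 4). The call was lost without any 1 of these 8 mice except fed replicate 4 (log2 fold change -0.70 to -0.83, adjusted p 0.0538 to 0.116), in limma-voom (adjusted p 0.0549) and with all 32 mice (adjusted p 0.0999). Rpl35a was at 10, 15, 22 and 37 raw counts in fed and at 0, 2, 3 and 10 in fasted mice. The share of counts was 0.173 times as high after fasting (95% exact binomial interval 0.0927 to 0.302, counting error only), with a log2 fold change of -2.38 (SE 0.57, edgeR adjusted p 0.00313). With its pseudogenes added the value was -0.30 (adjusted p 0.482), and the call was lost.

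The higher call in these mice was lost under most alternatives, among them DESeq2, limma-voom, leaving out MCAD-KO LF fasted replicate 1, and scaling by library totals in place of TMM, which moved the median of all genes to -0.17 in this comparison.

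No gene was called in WT LF mice (7.54% of all genes in either direction), WT HF mice (0.424%) or MCAD-KO HF mice (0.527%). At an unadjusted p below 0.05, 3 genes were lower in WT LF mice (19.3% of all genes in either direction) and 2 in WT HF mice (9.19%). In MCAD-KO HF mice 1 was higher (7.53%). In MCAD-KO LF mice 3 were lower (12.1% of all genes were lower) and 4 were higher (13.2%). Rpl36al in WT LF mice was at 21.9, 28.5 and 30.3 CPM fed and at 13.4, 15.6, 15.7 and 16.4 CPM fasted, without overlap. Its log2 fold change was -0.82 (edgeR adjusted p 0.0770), and the exact permutation p of 0.0571 is the smallest that 4 against 3 mice allow. Rpl36al was called in these mice with library totals (-0.92, adjusted p 0.0435), with a replicate block (-0.86, adjusted p 0.0377) and with lane as a term (-0.95, adjusted p 0.0331). In WT HF mice the smallest p was that of Rpl22l1 (-0.63, adjusted p 0.420) and in MCAD-KO HF mice that of Rps3a1 (1.22, adjusted p 0.554), which was at no more than 2.44 CPM fed and 4.08 to 5.47 CPM fasted. Among the 70 genes, 6 were lower after fasting in all 4 combinations and 6 were higher in all 4.

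The third comparison asked whether loss of MCAD changed these genes. Averaged over diet and feeding state none of the 70 was called in either direction by edgeR, DESeq2 or limma-voom, where edgeR called 0% of all genes higher and 0.00865% lower. At an unadjusted p below 0.05, 3 were higher (1.54% of all genes) and none lower (1.36%). They included Rpl37 (0.22, SE 0.09) and Rps4x (0.51, SE 0.25), both with an edgeR adjusted p that rounds to 1. The median of the 70 was 0.075 (all genes -0.0029), and 47 were positive. The stalk genes Rplp0, Rplp1 and Rplp2 were at 0.14, 0.03 and 0.19, and Rpl22l1, Rpl36al and Rpl35a showed no passing difference.

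No gene was called within any of the 4 conditions either, each fitted on its own groups. Among fed mice on LF (64 genes tested, 0.0193% of all genes called), Rps3, a 40S protein at the mRNA entry, had the smallest p. It was at 107, 112 and 115 CPM in WT and at 123, 136, 152 and 156 CPM in MCAD-KO mice, without overlap (0.35, edgeR adjusted p 0.805, and 0.46 with an adjusted p of 0.960 with lane as a term). In LF fasted mice (57 tested, 0.0104%), it was Rpl37, at 33.5, 44.5, 48.3 and 51.4 CPM in WT and at 49.1, 53.2, 62.8 and 87.8 CPM in MCAD-KO mice. In this condition 47 of the 57 values were positive with a median of 0.22. These mice included MCAD-KO LF fasted replicate 1, which lay outside the range of all other mice for several genes, as given above. In HF fed mice (55 tested, 0.00998%) 27 of 55 were positive and in HF fasted mice (62 tested, 0.0096%) 39 of 62. Over all genes tested, 4874 of 9639 values were positive in LF fasted mice. The same counts were 4976 of 10024 in HF fed and 5081 of 10413 in HF fasted mice. The smallest p in HF fed mice was that of Rpl9 (5.86 to 10.9 CPM in WT and 2.70 to 7.68 CPM in MCAD-KO mice) and in HF fasted mice that of Rpl21 (9.63 to 15.8 and 13.8 to 21.4 CPM). At an unadjusted p below 0.05, 2 genes were higher in LF fed mice (5.61% of all genes in either direction) and 1 in LF fasted mice (2.28%). In HF mice 1 was lower when fed (3.92%) and 0 differed when fasted (3.69%).

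Differences between effects were tested directly, and none of the 70 genes was called. For fasting on HF against fasting on LF, where 2.46% of all genes were called, the smallest p was that of a poorly counted gene, Rpl17 (-1.16, edgeR adjusted p 0.299), with 3 genes higher and 1 lower at an unadjusted p below 0.05 (13.3% of all genes). For fasting in MCAD-KO against WT mice, where 0% were called, it was that of Rps9 (0.50, adjusted p 0.976), the 1 gene at an unadjusted p below 0.05 (4.95%). For diet in MCAD-KO against WT mice, also 0%, it was that of Rpl5 (-0.81), again the 1 gene at that level (3.43%).

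Genes that build or serve the ribosome were counted in the same fits. Among all genes tested, 9.77% rose and 9.14% fell on fasting, which is the background of each count that follows for fasting. For ribosome biogenesis factors, 49 tested, 7 rose on fasting and none fell, with a median of 0.15. Nucleolin (Ncl, 0.37), Rrp1 (0.54) and nucleophosmin (Npm1, 0.34), all nucleolar proteins, were among them. Of 18 translation factors whose mRNAs also carry a TOP tract, 4 rose on fasting and none fell, including Eif3e (0.42), Eif4b (0.38) and Eef1d (0.39). On HF, where 2.26% of all genes rose and 1.24% fell, neither list had a gene that rose. No biogenesis factor was called and 38 of 49 values were negative (median -0.12), and of the translation factors 1 was called lower, Rack1 (-0.28, adjusted p 0.0303), a scaffold on the 40S subunit, with 16 of 18 values negative (median -0.15). The ribosomal protein genes and the TOP translation factors thus had negative medians with diet, and with fasting the medians were -0.036 and 0.18.

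Of 16 genes that control translation of TOP mRNAs or transcription of ribosomal protein genes, 2 rose on fasting, Mtor (0.73) and the S6 kinase Rps6kb1 (0.27), and 4 fell, among them the mTORC1 inhibitor subunit Tsc1 (-0.41), Larp1b (-0.79) and Mycn (-1.60). On HF only Ddit4, an inhibitor of mTORC1, was called (-1.33, adjusted p 0.0196). The 72 mitochondrial ribosomal protein genes, products of which form a separate ribosome, had a median of 0.014 with diet, where Mrpl45 rose (0.38) and Mrps2 fell (-0.31), and of -0.0089 with fasting, where 5 rose and 2 fell. None of these lists had a gene called between genotypes. Fau, which encodes a ribosomal protein under another name, was below the count filter.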

How the data were processed

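Liver RNA of 32 mice was measured with the QuantSeq 3′-end kit and deposited as 1 table of raw read counts per gene, which the authors made from single 50-base reads. According to the methods and the submitters' processing notes, reads were aligned to mouse GRCm38 with HISAT 0.1.5, sorted with SAMtools 1.2 and counted with HTSeq 0.6.1p1 in union mode, which by default leaves out reads aligned to several places or overlapping several genes. The strand setting of the counting is not given in the sources used here, and the named annotation release differs between the table (Ensembl release 76) and the methods (Ensembl release 82). The labels place 16 libraries in each of 2 lanes, whereas the methods describe 8 per lane. Ages carry no unit in the labels and were not used.

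Gene symbols and coordinates came from the GENCODE annotation of GRCm38. Of 20076 rows, 163, with 0.125% of the counts, had no symbol. These kept their Ensembl identifier and went through the same filter as the other rows. Genes were tested with edgeR 4.0.16 (R 4.3.3) on the counts as deposited, with TMM scaling, the filterByExpr filter, 1 term for each of the 8 groups, and the robust quasi-likelihood fit on 30 mice together; genotype within each condition was fitted on its own groups. Averaged comparisons were contrasts of group means. Exact permutation tests were two-sided, on log2 values with a pseudocount of 0.5, for 14 comparisons of single genes. The mice are separate animals, and counting intervals cover counting error only. The scripts were tested on simulated data. Same-numbered mice of different groups did not deviate together (98 pairs, r from -0.285 to 0.207, 4 over 0.1), so the replicate numbers were not taken as pairs. The 42 pairs of mice within groups all differed by more than sampling noise (chi-square per degree of freedom 4.17 to 55.6). The largest values, 34.9 to 55.6, were those of MCAD-KO LF fasted replicate 1 with the other mice of its group.

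The genes and the other lists were chosen with earlier results of these data known. Genes are named if they passed in a comparison, had the smallest p where few or none passed, had the highest or lowest counts, failed the filter, or had a role or paralog fixed in a list; of the other lists, up to 3 genes per direction are named. Alternatives were DESeq2 1.42.0, voom of limma 3.58.1, library totals, no filter, other sets of mice, lane, a replicate block, subsets of the genes and each replicate left out. After the data had been seen, mice with pancreatic markers were left out and counts of pseudogenes were added as 2 further alternatives, and 1 mouse was left out of the group means. Results for some genes are not reported here; counts over all genes include them.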

Additional observations from a re-analysis of the deposited data

Results flagged for a closer look

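A Dixon test was applied to 48 sets of 4 mice, for 7 ribosomal protein genes and the summed share; chance alone marks about 1 in 20 such sets. In WT LF fasted mice, replicate 3 had 4.31 CPM of Rpl35a, while the nearest other mouse of that group had 2.61 CPM. In MCAD-KO LF fasted mice, replicate 1 had 268 CPM of Rpl8, and the next mouse had 209 CPM.

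The 2 mice that entered no comparison also held values outside the range of the others. Rpl3l, the paralog of Rpl3 that is known from heart and skeletal muscle, had 414 counts, or 124 CPM, in MCAD-KO HF fasted replicate 4, the mouse with 34774 CPM of heart markers. In the 30 mice it was at 0 in 24 and reached 16 counts, or 5.87 CPM. In WT LF fed replicate 2 the ribosomal protein genes took 0.510% of the counts, above the highest of the 30 mice at 0.464%, and 18 of the 85 genes were above their own highest value in those mice.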

How the results depend on the processing

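Of 505 values of the 21 counts of called genes under alternatives, 475 stayed within 1.5 times of the reported count. Most of the 21 reported counts were 0, and a 0 that stayed 0 was scored as kept. The tally of 475 therefore says little about the counts above 0, which are given next. The number lower on HF (5) was 9 with pseudogene counts added, 3 among genes without a named pseudogene (21 instead of 70 genes), 0 within lane 7 and 1 to 8 with a replicate number left out. The number lower after fasting (3) was 1 within lane 7, 0 within lane 8, 1 among core genes and 1 to 2 with a replicate number left out; the number higher (0) was 2 within lane 8 and 0 to 1. For fasting in WT LF mice (0) it was 1 with library totals, with a replicate block and with lane as a term. For fasting in MCAD-KO LF mice (3) it was 1 with all 32 mice and 1 to 4 with 1 mouse left out. For diet in fasted MCAD-KO mice (1) it was 0 with all 32 mice, with 31 mice, with library totals and without the filter, 2 with DESeq2, and 0 to 2 with 1 mouse left out. Lanes and sets with a mouse left out hold fewer mice. For the others the cause was not tested. Shares over all genes are not given here for these alternatives.

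The replicate block gave 5 genes lower on HF, 3 lower after fasting, and 1 in WT LF mice, Rpl36al (log2 fold change -0.86, edgeR adjusted p 0.0377). It changed no other count of called genes by over 1.5 times.

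Of 786 values for 37 single results, 711 kept direction and side of the threshold, 64 no longer passed, 5 passed newly and 6 changed sign. Most of the 37 had not passed in the reported fit, and only those that had passed could lose their call. With pseudogenes added, Rpl27 (-0.21) and Rpl35a (-0.088) changed sign for diet, Rps12 (0.14) and Rps25 (0.11) for genotype, and Rpl9 (0.11) for genotype in HF fed mice. Within lane 8 Rpl35a was at -0.33 for diet. None of these passed in the reported fit, and the cause was not tested. The 25 genes with a mean under 10 counts are the least precisely counted.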
